A study of Mus musculus with 6 samples.

Results

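Ccr7 dendritic cells were sought in pancreatic tumours of KPC mice, and 115 were found among 54911 kept cells. Kept cells had 500 or more unique molecular identifiers (UMIs, counts of captured RNA molecules) and 300 or more genes, and their mitochondrial UMIs did not exceed 20%. A cell was a member when at least 3 of the 4 genes Ccr7, Ccl22, Fscn1 and Il4i1 were detected, with at least 2 UMIs of the MHC class II gene H2-Aa and at least 1 UMI of the leukocyte gene Ptprc. Members also had fewer than 5 UMIs of the macrophage genes C1qa, C1qb and C1qc in sum, and no UMI of the neutrophil gene Csf3r or the B cell gene Cd79a. These genes chose the cells, so their values below are a description and carry no test.

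Conventional dendritic cells sample antigen in a tissue and then mature, a switch that raises the chemokine receptor Ccr7, costimulatory molecules and peptide-loaded MHC on the cell surface while antigen uptake falls. Ccr7 senses the chemokines Ccl19 and Ccl21, which guide the mature cell through lymphatic vessels to the lymph node, where it meets naive T cells. Ccl22 attracts T cells that carry Ccr4, regulatory T cells among them, Fscn1 bundles actin in the dendrites and Il4i1 is a secreted amino acid oxidase that restrains T cells. In tumours such cells carry both stimulatory and restraining molecules, and NF-kB factors, Relb among them, are known drivers of the maturation programme.

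KPC mice carry the alleles KrasLSL.G12D/+ and P53LSL.R172H/+ with Pdx1-Cre, and the Pdx1 promoter switches both mutations on in cells of the pancreatic lineage, so tumours arise in the mouse's own pancreas with its immune system in place. Treated mice received IPI-926, a drug that blocks Smoothened in the Hedgehog pathway, by oral gavage at 40 mg/kg daily for 2 days, and the control mice received its vehicle, HPBCD in water, on the same schedule. Tumours were collected 2 hours after the final dose and dissociated whole, with no sort, into 1 10x Genomics 3' single-cell library per mouse, 3 libraries for IPI-926 and 3 for vehicle. The design asks which cells change when Smoothened is inhibited, with Hedgehog, WNT and VEGF signalling in view. The libraries held 100810942 to 174929328 UMIs with IPI-926 and 102399658 to 132827800 with vehicle, and the median UMIs per kept cell averaged 3401 ± 714 against 6528 ± 1720 (SD, n = 3 each).

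The libraries with IPI-926 gave 15, 16 and 22 members in replicates 1, 2 and 3, and those with vehicle gave 7, 50 and 5. Vehicle replicate 2 therefore held 50 of the 62 vehicle members, and 2 vehicle libraries rest on fewer than 10 cells each. Of the members 76 had all 4 rule genes and 39 had 3 of them. Among those with 3, Fscn1 was the gene lacking in 17, Ccl22 in 14, Il4i1 in 7 and Ccr7 in 1. Just outside the rule, 54 cells met every other condition with 2 of the 4 genes, and 86 of the 201 cells with at least 3 of the genes failed another condition. Of those 86 cells 30 failed only for want of a Ptprc UMI, 14 only by their C1q UMIs and 10 only by H2-Aa. Near the thresholds on the inside, 8 members had 2 or 3 H2-Aa UMIs and 6 had 3 or 4 C1q UMIs.

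Ccr7 (GRCm38 chromosome 11 from 99144196 to 99155077) had a median of 11 UMIs per member and at most 36. Ccl22 (chromosome 8 from 94745590 to 94751699) had a median of 6 and a maximum of 119, Fscn1 (chromosome 5 from 142960343 to 142973185) a median of 10 and a maximum of 56, and Il4i1 (chromosome 7 from 44816387 to 44840809) a median of 4 and a maximum of 20. The median Ccr7 UMIs per member were 10, 10.5 and 7 in the libraries with IPI-926 and 12, 12 and 11 in those with vehicle. Detection of the 4 genes can be set against 2 classes that should lack them, ductal and fibroblast cells. Ccr7 was detected in 99.1% of members, 0.316% of ductal cells and 0.674% of fibroblasts, while Fscn1, at 85.2% of members, was also found in 29.0% of ductal cells and 46.2% of fibroblasts. Members had a median of 8705 UMIs (549 to 131088), and the ductal medians ranged from 3837 to 33932 between libraries.

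Genes that the rule did not use served as a check of the cells' name. Cd83, a surface marker of mature dendritic cells, was detected in 88.7% of members (95% exact binomial interval 81.4 to 93.8), 39.2% of Cd209a dendritic cells and 1.80% of ductal cells. Relb was detected in 93.0% of members, but also in 36.1% of ductal cells. With every cell thinned to 2000 UMIs, the Relb shares were 52.2% of members, 8.50% of Cd209a dendritic cells and 6.05% of ductal cells. The cytokine signalling inhibitor Socs2, thinned in the same way, was found in 38.1% of members and 9.03% of ductal cells, and Ccl17, a second Ccr4 ligand, in 56.6% and 0.285%. Thinned likewise, Cd40 was found in 17.7% of members and 0.635% of ductal cells, the dendritic cell receptor tyrosine kinase Flt3 in 25.7% and 0.109%, and the dendritic cell transcription factor Zbtb46 in 15.04% and 0.624%. Without thinning the members' shares were 47.8%, 49.6% and 38.3%, against 4.55%, 0.632% and 4.66% of ductal cells. A contrast with ductal cells does not separate the members from other dendritic cells. In the comparisons with those below, Socs2 was higher than in both classes. Flt3 and Zbtb46 were called higher only against Cd209a cells, and Ccl17 against neither class. Cd40 was called higher against Cd209a cells and was not tested against type 1 cells. Cd200, at 17.7% of thinned members, was also found in 5.56% of ductal cells and 12.4% of fibroblasts. Lamp3, Ido1, the Langerhans cell gene Cd207 and Ccl19 had a UMI in 0 of 115 members, which allows a share of members with a UMI of up to 2.61% and sets no limit on members that express them. Xcr1, the receptor of type 1 dendritic cells, was detected in 0.870% of members, and Cd209a in 5.22%. Intervals and limits cover counting error only.

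RNA of other cells was present in many members. At least 2 markers of another cell type (T, B, epithelial, fibroblast or endothelial) were detected in 57 of 115 members. By library these were 3, 9 and 17 members with IPI-926 and 5, 18 and 5 with vehicle. Of the 115 members 7 held over 25000 UMIs, and all 7 carried at least 2 epithelial or fibroblast markers. They made up 27.6% of the summed UMIs of members in IPI-926 replicate 2, 24.4% in IPI-926 replicate 3, 35.0% in vehicle replicate 2 and 76.5% in vehicle replicate 3. All 8 genes of the epithelial list were detected, with a summed level of 138 to 3651 CPM (UMIs per 1000000 summed UMIs of the members in a library) in members with IPI-926 and 543 to 6096 CPM in those with vehicle. Without the 7 cells those ranges were 159 to 236 CPM and 143 to 639 CPM. The highest sums lay in libraries that held such cells. The 7 fibroblast markers summed to 11.4 to 4129 CPM with IPI-926 and 112 to 4420 CPM with vehicle, and to 10.5 to 571 CPM and 37.6 to 161 CPM without the 7 cells. In all, 28 members had at least 2 epithelial markers and 36 at least 2 fibroblast markers, of which 17 lay in IPI-926 replicate 3.

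**Figure D1:**
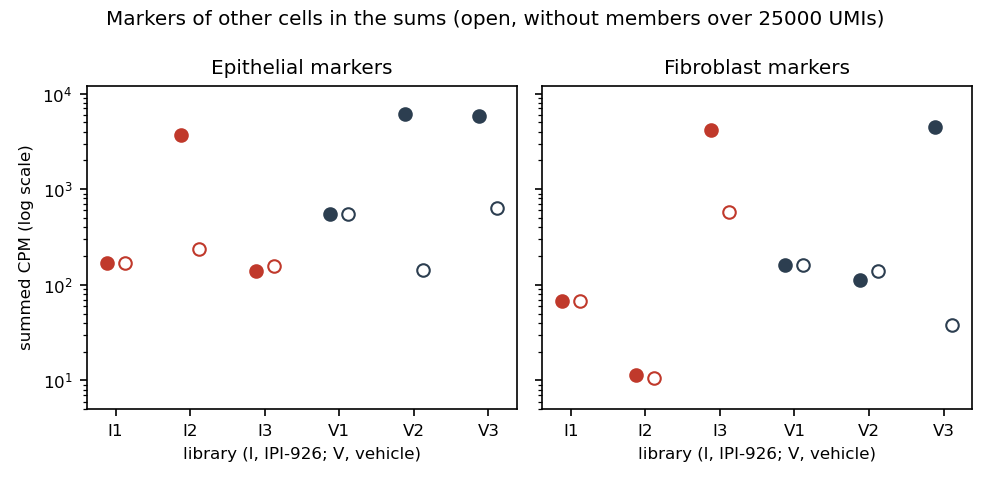
Summed level of the epithelial and the fibroblast marker lists in the pooled Ccr7 dendritic cells of each library, in CPM on a log scale, with all members (filled) and without the 7 members over 25000 UMIs (open). I marks IPI-926 and V vehicle. The filled points reach 3651 CPM of epithelial markers in I2 and 6096 CPM in V2, while no open point of that list exceeds 639 CPM.

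Each list of immune cell markers given here summed to at most 262 CPM in the members of any library. The rule had left out cells with a UMI of Csf3r or Cd79a, and cells at or above its C1q limit. The neutrophil, B cell and macrophage sums are therefore no independent check of the members' purity. Of the B cell list Pax5 and Cd22 were among the genes at 0, and the list summed to 7.58 to 25.2 CPM with IPI-926 and 0 to 1.498 CPM with vehicle. NK cell markers were as low. Of that list Ncr1, Gzma and Eomes were at 0, with sums of 0 to 16.8 CPM and 0 to 5.99 CPM. T cell markers, all 8 detected, summed to 0 to 192 CPM with IPI-926 and 11.99 to 79.4 CPM with vehicle. Macrophage RNA was present in every library. All 9 macrophage and monocyte markers were detected, at 174 to 227 CPM with IPI-926 and 238 to 262 CPM with vehicle. Neutrophil markers summed to 3.79 to 33.6 CPM and 20.1 to 52.9 CPM, with Retnlg at 0. No member barcode occurred in 2 members, and 6 member barcodes were also found in another library, where any pair of libraries shared at most 59 barcodes.

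Members differed among themselves in the chemokines and enzymes they carried. Ccl17 was detected in 84 of 115 members with 0 to 473 UMIs per member. It was found in 8 of 15, 13 of 16 and 10 of 22 members with IPI-926 and in 6 of 7, 43 of 50 and 4 of 5 members with vehicle. IPI-926 replicate 3 had the lowest share of Ccl17 members. Ccl5, a chemokine that draws T cells, was detected in 10, 8 and 20 members with IPI-926 and in 5, 24 and 5 with vehicle. Its highest value, 362 UMIs in 1 cell, came from IPI-926 replicate 3, where Ccl17 was lowest. Aldh1a2, the enzyme that makes retinoic acid, was found in 6, 8 and 2 members with IPI-926 and in 2, 29 and 4 with vehicle.

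Il12b, the shared subunit of the T cell stimulating cytokines IL-12 and IL-23, was found in a minority of members. It had a UMI in 27 of 115 members (23.5%, interval 16.1 to 32.3), against 0% of Cd209a dendritic cells, 1.33% of type 1 dendritic cells and 0.0513% of ductal cells. The Il12b members numbered 2, 2 and 7 with IPI-926 and 1, 15 and 0 with vehicle, so 15 of the 27 came from vehicle replicate 2. Of the 27 cells 21 also held Ccl17, 14 held Ccl5 and 10 held Aldh1a2, while 63 members had Ccl17 without Il12b. A UMI of the proliferation genes Mki67 or Top2a was seen in 36 members. These co-detection counts are descriptions, since detection rises with a cell's UMIs.

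The share of Ccr7 dendritic cells did not separate the groups. It was 0.186%, 0.242% and 0.134% of kept cells with IPI-926 and 0.0990%, 0.535% and 0.0676% with vehicle. Vehicle replicate 2 lay above every library with IPI-926, and the other vehicle libraries lay below all of them. The means were 0.187 ± 0.0540% and 0.234 ± 0.261% (SD, n = 3 each), a difference of -0.0465 percentage points (two-sided exact permutation p = 1.0 over 20 assignments, of which the smallest possible is 0.1). Without vehicle replicate 2 the difference was +0.104 (p = 0.2 by the same exact test). Of Ptprc-positive cells the members were 0.364 ± 0.162% with IPI-926 and 0.510 ± 0.275% with vehicle (exact permutation p = 0.6). Depth differed between the groups and the rule needs detected genes, and with every cell thinned to 2000 UMIs the difference was -0.00250 percentage points.

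**Figure D2:**
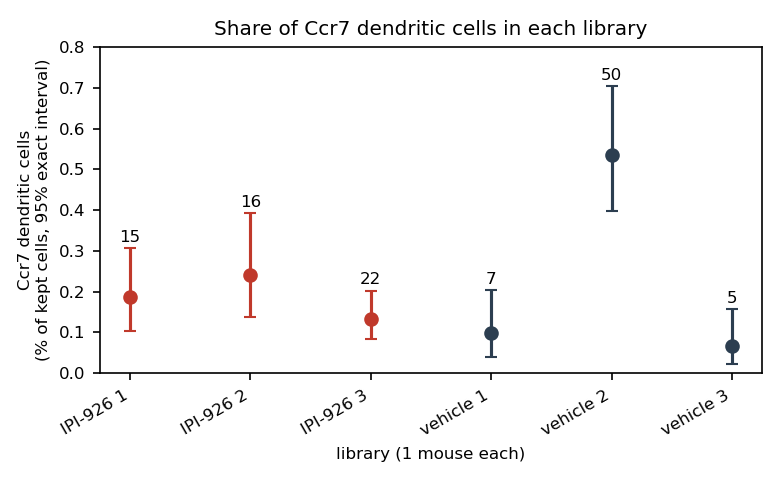
Ccr7 dendritic cells as a percent of kept cells in each library, with 95% exact binomial intervals and the number of members above each point. The 3 libraries with IPI-926 (left) lie between 0.134% and 0.242%, and the vehicle libraries (right) include both the lowest value, 0.0676%, and the highest, 0.535%.

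Members were next set against other dendritic cells of the same tumours, to describe genes that the rule did not use. The comparison classes passed the same conditions on H2-Aa, Ptprc, C1q, Csf3r and Cd79a and had fewer than 2 of the 4 rule genes. Cd209a dendritic cells, 255 in number, had at least 2 UMIs of the lectin gene Cd209a and neither Xcr1 nor Clec9a. Type 1 dendritic cells, 150 in number, had at least 2 of the cross-presentation lineage genes Xcr1, Clec9a, Wdfy4 and Cadm1, with Xcr1 or Clec9a among them. IPI-926 replicate 1 and vehicle replicate 3 held 0 Cd209a dendritic cells and only 2 Cd209a UMIs each over all kept cells. Counts were summed per library and class, for libraries with at least 10 cells in both classes, and tested with edgeR's quasi-likelihood test with the library as a block and Benjamini-Hochberg adjustment over all genes tested. The other genes of the classes were not used by the rules but were measured in the cells that the rules chose.

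Against Cd209a dendritic cells, in IPI-926 replicates 2 and 3 and vehicle replicate 2, Ccr7 dendritic cells were higher in 375 of 5746 genes (6.53%) and lower in 401 (6.98%). The higher genes included 5 of 14 tested NF-kB and survival genes, 3 of 7 costimulation and maturation genes, 7 of 11 checkpoint genes and 7 of 9 genes of migration and the cytoskeleton. The lower genes included 5 of 11 MHC class II genes, 3 of 3 pathogen sensors and the monocyte-linked chemokine receptor Ccr2. Against type 1 dendritic cells, in all 3 libraries with IPI-926 and vehicle replicate 2, members were higher in 381 of 2886 genes (13.2%) and lower in 280 (9.7%). Of 2876 genes tested in both comparisons 218 were higher and 137 lower in both, none was lower than Cd209a and higher than type 1 cells, and 2 genes, Cst3 and Irf8, were higher than in Cd209a cells and lower than in type 1 cells. Both comparisons use the same Ccr7 sums, so these shared calls are not independent. Without the library block the calls against Cd209a cells were 178 higher and 153 lower, and without cells over 25000 UMIs they were 699 and 635.

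The largest differences lay in a compact set of genes. H2-M2, a nonclassical MHC class I gene, had 137, 108 and 64.4 CPM in Ccr7 dendritic cells of IPI-926 replicates 2 and 3 and vehicle replicate 2, and 0 UMIs in Cd209a cells of each. That is at least 67.7-fold higher, with a floor of 3 UMIs over the summed Cd209a cells (edgeR adjusted p = 5.4e-05). Serpinb6b, an intracellular serpin, had 262, 719 and 481 CPM in Ccr7 cells, against 0, 15.5 and 5.11 CPM in Cd209a cells (log2 fold change 6.23). Every library was higher in Ccr7 cells, which the choice of named genes required, and the classes did not overlap for either gene.

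Nudt17 (log2 fold change 7.47), the transcript Gm13546 (6.45), the MHC class II family gene H2-Eb2 (6.04), Ccl5 (5.96), the calcium channel subunit Cacnb3 (5.76), the membrane-bound protease Mmp25 (5.23), Strip2 (4.84), the enolase Eno3 (4.81), Zmynd15 (4.76) and Ly75, the endocytic receptor DEC-205 (4.51), completed the genes most above Cd209a cells. Ccl5 spread widely, with 739, 5442 and 536 CPM in Ccr7 cells and 0, 226 and 3.06 CPM in Cd209a cells. Nudt17, Gm13546, Ccl5, Cacnb3 and Mmp25 were also among the genes most above type 1 cells, by 6.92, 6.31, 5.96, 5.53 and 4.73. Serpinb6b, Cd209d, Ifitm6, Hist1h1b and the H2 genes belong to families with close copies, whose reads the counting may have split. The Ccl5 call did not hold without the library block against Cd209a cells (edgeR adjusted p = 0.41) or type 1 cells (0.077), nor without vehicle replicate 2 against Cd209a cells (5.57, 0.088).

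Other genes far above type 1 cells were Ramp3, which modifies the ligand choice of peptide hormone receptors, and Fabp5, a fatty acid carrier. Ramp3 had 428, 277, 456 and 259 CPM in Ccr7 cells of IPI-926 replicates 1 to 3 and vehicle replicate 2, and 13.6, 0, 0 and 1.87 CPM in type 1 cells (log2 fold change 7.32, SE 0.53, edgeR adjusted p = 4.9e-07). Fabp5 had 3063, 3742, 1696 and 2593 CPM in Ccr7 cells, against 67.8, 216, 41.2 and 46.8 CPM in type 1 cells (5.25, SE 0.29). Both genes were higher in Ccr7 cells in all 4 libraries, which the choice of named genes required, and the classes did not overlap. The adhesion receptor Adgrg6 (5.599), the adenosine receptor Adora2a (4.96), the adenylyl cyclase Adcy6 (4.90), the carbonic anhydrase Car2 (4.84) and Castor2 (4.43) were also higher.

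Genes of the NF-kB list were higher in both comparisons, 10 of 12 tested against type 1 cells and 5 of 14 against Cd209a cells. Relb (GRCm38 chromosome 7 from 19606217 to 19629438), the transcription subunit of the non-canonical branch, had 361, 231, 426 and 210 CPM in Ccr7 cells of IPI-926 replicates 1 to 3 and vehicle replicate 2. In type 1 cells it had 27.1, 41.8, 28.3 and 24.3 CPM, and in Cd209a cells of the last 3 of those libraries 33.4, 58.8 and 38.8 CPM. All Ccr7 sums stood above all sums of the other classes. The log2 fold changes were 3.43 (SE 0.31, edgeR adjusted p = 1.4e-06) over type 1 cells and 2.75 (SE 0.26, edgeR adjusted p = 5.9e-05) over Cd209a cells. No gene of this NF-kB and survival list was lower, and the median log2 fold changes were 1.86 over type 1 and 0.97 over Cd209a cells, against -0.01 over all genes in both. Rel rose by 2.15 and 1.41 over type 1 and Cd209a cells, and Nfkb2 (chromosome 19 from 46304320 to 46312385), the precursor of Relb's partner p52, by 1.70 and 1.504. Without the library block Rel (edgeR adjusted p = 0.59) and Nfkb2 (0.057) did not pass against Cd209a cells. Nfkb1 (2.02) and the inhibitor Nfkbia (1.62), itself an NF-kB target, were higher than in type 1 cells.

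The promoters of Nfkb2, Rel and Nfkbia are shown because these genes were higher than in type 1 cells and are known to be regulated by NF-kB. Nfkbia was not called higher than in Cd209a cells. Each window shown holds a match, and of the other genes of the list some also hold a match and some lack one. The windows run from 250 bases before to 50 after the RefSeq gene start (GRCm38.p6), 5′ to 3′ on the gene's strand, at chr19:46304487-46304786 (+) for Nfkb2, chr11:23770920-23771219 (-) for Rel and chr12:55492598-55492897 (-) for Nfkbia. Capitals mark matches of the NF-kB motif, GGG followed by any 3 bases and TTCC, on either strand.
Nfkb2: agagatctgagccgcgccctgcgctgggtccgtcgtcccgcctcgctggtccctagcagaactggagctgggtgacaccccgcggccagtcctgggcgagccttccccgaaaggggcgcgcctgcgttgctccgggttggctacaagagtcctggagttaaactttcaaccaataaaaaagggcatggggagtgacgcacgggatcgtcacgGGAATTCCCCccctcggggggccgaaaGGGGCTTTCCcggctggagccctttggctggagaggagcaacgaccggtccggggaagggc
Rel: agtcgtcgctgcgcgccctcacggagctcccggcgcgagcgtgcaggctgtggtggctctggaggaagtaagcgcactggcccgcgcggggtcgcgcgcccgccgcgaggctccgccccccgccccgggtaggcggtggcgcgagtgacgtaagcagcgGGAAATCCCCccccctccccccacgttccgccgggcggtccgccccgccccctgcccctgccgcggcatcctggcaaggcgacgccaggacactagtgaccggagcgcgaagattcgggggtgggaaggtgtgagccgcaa
Nfkbia: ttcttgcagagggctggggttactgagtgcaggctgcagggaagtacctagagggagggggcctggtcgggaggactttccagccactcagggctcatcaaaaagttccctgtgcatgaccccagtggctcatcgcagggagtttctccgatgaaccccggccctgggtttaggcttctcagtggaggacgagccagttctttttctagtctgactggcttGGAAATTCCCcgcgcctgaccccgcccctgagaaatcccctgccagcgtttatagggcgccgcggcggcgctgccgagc
The Nfkb2 window held 2 matches, and the Rel and Nfkbia windows 1 each. A match was present in 1825 of 32851 RefSeq promoters (5.56%), and in any promoter of 6.31% of 27025 genes. Of the NF-kB list 8 of the 13 genes matched by symbol had at least 1 match, and of the rule genes Ccl22, Fscn1 and Il4i1 had none in these windows. Birc2, Traf1 and Cflar, also higher than in type 1 cells, had none. Relb, Nfkb1 and the rule gene Ccr7 had no window matched by symbol. A match is a description of the letters and not of binding.

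Costimulatory molecules were higher, though not all of them against both classes. Cd86, which binds Cd28 on T cells, had 260, 125, 276 and 129 CPM in Ccr7 cells and 88.2, 76.6, 153 and 84.2 CPM in type 1 cells of the same libraries, with overlap between the classes. Within each library it was higher in Ccr7 cells (log2 fold change 0.98, SE 0.27). Its partner Cd80 rose by 2.41 and Cd83 by 2.34 over type 1 cells, and all 4 tested genes of the costimulation and maturation list were higher there. Against Cd209a cells 3 of 7 were higher, Cd40, Cd86 and Relb. Cd40, the receptor for T cell help, rose by 2.54 and Cd86 by 1.13, while Cd80 (0.88, edgeR adjusted p = 0.096) and Cd83 (2.17, edgeR adjusted p = 0.35) did not pass. Without the library block Cd40 (edgeR adjusted p = 0.076) and Cd86 (0.18) did not pass against Cd209a cells, nor did Cd86 against type 1 cells (0.10). With DESeq2 Cd86 had an adjusted p of 0.060 against Cd209a cells. The Cd86 calls also depended on single libraries. They were lost against Cd209a cells without vehicle replicate 2 (1.03, edgeR adjusted p = 0.10), and against type 1 cells without IPI-926 replicate 1 (0.77, 0.064) or 3 (1.02, 0.054).

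Molecules that restrain T cells were higher in the same cells. Cd274, which encodes the checkpoint ligand PD-L1, had 252, 125, 258 and 154 CPM in Ccr7 cells, against 54.3, 27.9, 20.6 and 28.1 CPM in type 1 cells. In Cd209a cells it had 43.0, 31.0 and 34.7 CPM. The groups did not overlap, and the log2 fold changes were 2.80 and 2.34. Socs2 rose by 4.29 over type 1 and 3.69 over Cd209a cells, and Cd200, the ligand of an inhibitory receptor on myeloid cells, by 2.37 over type 1 cells. Of the checkpoint and immunoregulation list 7 of 11 genes were higher than in Cd209a cells, among them Pdcd1lg2, the second PD-1 ligand (2.17), the death receptor Fas (3.198) and Aldh1a2 (1.99), and Tgfb1 (-1.19) was lower. Against type 1 cells 4 of 6 were higher and none lower. The subunit of the IL-15 receptor that presents the cytokine to T and NK cells, Il15ra, rose by 2.70 over Cd209a cells. Without the library block Aldh1a2 (edgeR adjusted p = 0.17) and Il15ra (0.16) did not pass, and Aldh1a2 was also lost without IPI-926 replicate 2 (1.48, 0.15) or vehicle replicate 2 (1.79, 0.098).

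Genes of shape, adhesion and migration were higher in both comparisons, 7 of 9 tested with none lower in each (median log2 fold change 2.31 over Cd209a cells and 2.11 over type 1 cells, against -0.01 over all genes in both). Marcks, a substrate of protein kinase C that links actin to the membrane, had 1443, 796, 1097 and 998 CPM in Ccr7 cells, against 136, 230, 419 and 262 CPM in type 1 cells and 148, 187 and 239 CPM in Cd209a cells. Every Ccr7 sum lay above every other. Basp1, another membrane-bound regulator of actin, rose by 1.96 over type 1 and 1.61 over Cd209a cells, the membrane chemokine Cxcl16 by 2.11 and 2.33, and the adhesion molecule Icam1 by 1.95 and 1.77. The metalloprotease Adam8 rose by 1.44 over Cd209a cells. Nrp2, a semaphorin and VEGF-C receptor that carries polysialic acid on migrating dendritic cells, rose by 3.64 and 1.87. Of the T cell chemokine list Ccl5 and Cxcl16 were higher in both comparisons, and Ccl3 (-2.85) was lower than in Cd209a cells. Adam8 did not pass without the library block (edgeR adjusted p = 0.072) or with DESeq2 (adjusted p = 0.062). Nrp2 was lost against Cd209a cells without IPI-926 replicate 2 (1.51, edgeR adjusted p = 0.059), and against type 1 cells without IPI-926 replicate 1 (3.38, 0.11) or 3 (4.26, 0.072).

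**Figure D3:**
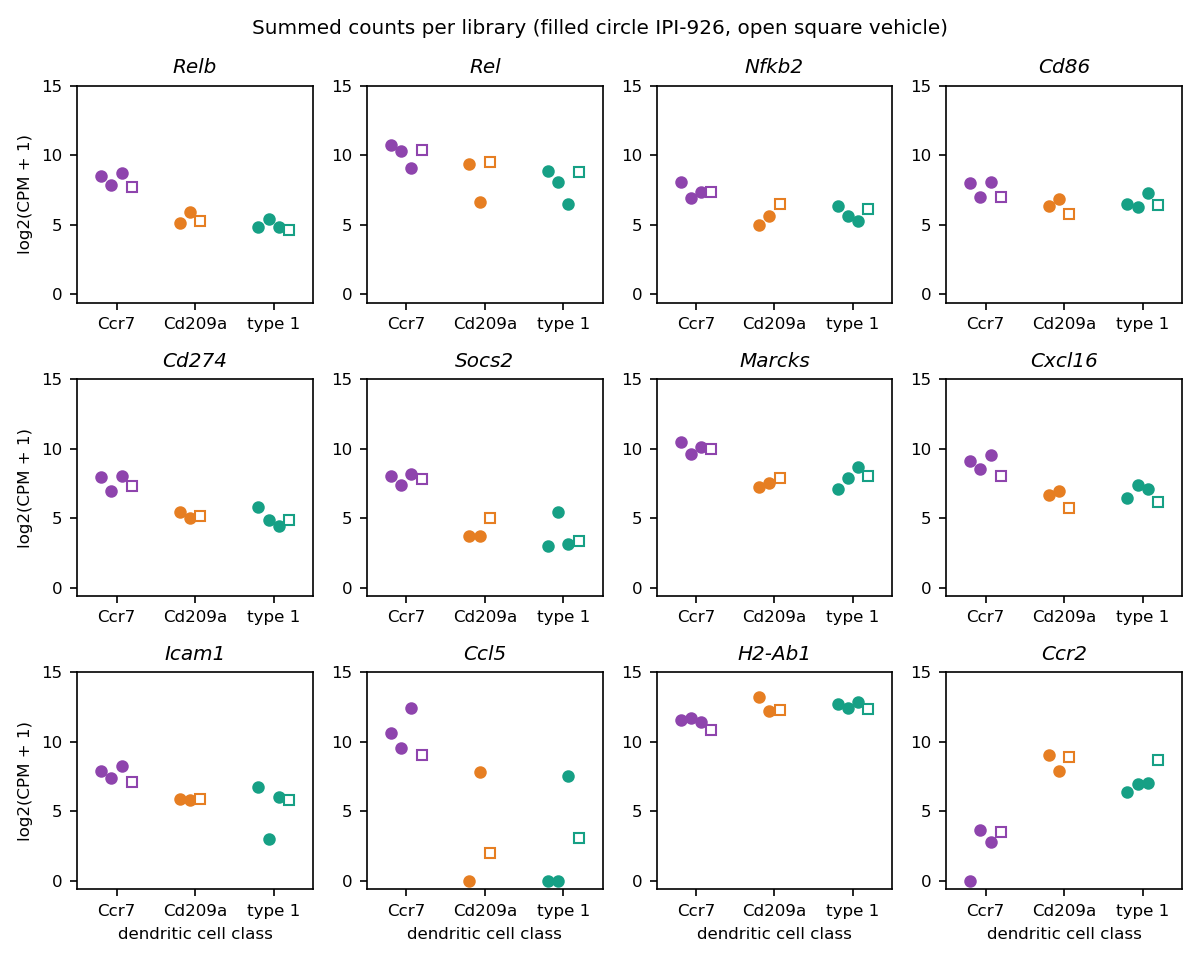
Level of 12 genes in the summed cells of each library, as log2(CPM + 1), in Ccr7, Cd209a and type 1 dendritic cells. Filled circles are libraries with IPI-926 and open squares vehicle replicate 2, with 4 libraries for Ccr7 and type 1 cells and 3 for Cd209a cells. The Ccr7 points of Relb, Cd274, Socs2 and Marcks lie above all others, and those of H2-Ab1 and Ccr2 lie below all others.

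Several genes of the MHC class II list were lower, and the class I list is given beside it. H2-Ab1, a chain of the class II molecule, had 3038, 3401, 2787 and 1892 CPM in Ccr7 cells, against 6635, 5615, 7317 and 5330 CPM in type 1 cells. In Cd209a cells it had 9460, 4768 and 5041 CPM. All Ccr7 sums were the lower ones, with log2 fold changes of -1.10 and -1.17. Of 11 class II presentation genes 7 were lower than in type 1 cells, H2-Eb1 (-0.43), the class II master regulator Ciita (-1.70) and the ubiquitin ligase March1, which removes class II from the surface, among them, and 5 were lower than in Cd209a cells. None of the listed genes was higher in either. H2-Eb2, the class II family gene named above, is outside the list and was higher than in Cd209a cells. March1 was lower by far, with 0, 0, 5.99 and 2.996 CPM in Ccr7 cells and 102, 125, 129 and 116 CPM in type 1 cells (log2 fold change -5.32). Of 8 class I genes 2 were higher than in type 1 cells, H2-K1 (0.73) and the light chain B2m (0.63), with a list median of -0.14 and 5 of 8 below 0. Against Cd209a cells 1 of 8 was higher, H2-K1 (0.87), with a median of 0.51. No listed class I gene was lower in either. Over all genes 13.2% were higher than in type 1 and 6.53% higher than in Cd209a cells. With 8 genes tested, the class I counts are too near those shares to describe the list. The shares of lower genes, for class II, were 9.7% and 6.98%. The nonclassical class I gene H2-M2, also outside the list, was higher than in Cd209a cells. The call of H2-Eb1 was the least stable. It did not pass with DESeq2 (adjusted p = 0.13), without the block (edgeR adjusted p = 0.33) or without any 1 of the 4 libraries (-0.51 to -0.38, edgeR adjusted p = 0.058 to 0.20), and was at -0.08 without cells over 25000 UMIs. Against Cd209a cells H2-Ab1 did not pass without the library block (edgeR adjusted p = 0.095) or without IPI-926 replicate 2 (-0.99, 0.061). H2-K1 was lost there without the block (0.73), IPI-926 replicate 2 (0.82, edgeR adjusted p = 0.12) or vehicle replicate 2 (0.90, 0.083). Against type 1 cells H2-K1 (edgeR adjusted p = 0.48) and B2m (0.43) were lost without the block, B2m also without IPI-926 replicate 1 (0.61, 0.088) or 2 (0.59, 0.063). With members carrying other cells' markers left out and the minimum lowered to 5 members, H2-Ab1 was at -0.62 (edgeR adjusted p = 0.068) against type 1 and -0.52 (0.14) against Cd209a cells.

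Sensors of the tissue-resident state and the chemokine receptor Ccr2 were lower. Ccr2, the receptor that brings monocyte-related cells into inflamed tissue, had 0, 11.4, 5.99 and 10.5 CPM in Ccr7 cells, against 81.4, 125, 130 and 414 CPM in type 1 cells and 540, 241 and 484 CPM in Cd209a cells. The classes did not overlap (log2 fold change -4.65 over type 1 cells and -5.45 over Cd209a cells, edgeR adjusted p = 3.1e-06 and 5.7e-06).

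All 3 tested pathogen sensing genes were lower than in Cd209a cells, namely the receptor Tlr2 (-2.13), its adaptor Myd88 (-1.31) and the fungal lectin Clec4n (-2.18). Of the 3 tested against type 1 cells 2 were lower, Myd88 and Tlr3. Tlr3 is also counted below among the type 1 dendritic cell genes. Other genes most below Cd209a cells were the leukotriene receptor Ltb4r1 (-4.96), the adaptor Lat2 (-4.64), the lectins Cd209d (-4.60) and Clec4a2 (-4.50), Ifitm6 (-4.50) and the transcription factor Mef2c (-4.33). Of 9 type 2 dendritic cell genes 5 were lower than in the Cd209a cells, Mgl2 (-2.29) among them, and of 7 macrophage and monocyte markers 4, Csf1r (-2.43) among them. These lists describe the class that Cd209a was used to choose. Myd88 (edgeR adjusted p = 0.056), Tlr2 (0.16) and Mgl2 (0.15) did not pass without the library block. Myd88 was also lost with DESeq2 (adjusted p = 0.15) and without IPI-926 replicate 2 (-1.27, edgeR adjusted p = 0.10) or vehicle replicate 2 (-1.45, 0.094).

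The genes most below type 1 cells were the septin Sept3 (-7.58), the endosomal GTPase Rab7b (-6.94), Ly6c2 (-5.70), the lipid amidase Naaa (-5.40), the histone Hist1h1b (-5.14) and Itgae, the integrin CD103 (-4.91). Naaa had 8.39, 30.3, 42.0 and 13.5 CPM in Ccr7 cells, against 617, 745, 1374 and 1164 CPM in type 1 cells, with no overlap. Of 6 type 1 dendritic cell genes outside the choice of that class 5 were lower. Irf8, the factor that specifies type 1 dendritic cells, fell by 2.13 relative to type 1 cells and was 1.30 higher than in Cd209a cells. Of 8 general dendritic cell genes tested against Cd209a cells, Flt3 (1.96), Zbtb46 (1.54), Batf3 (1.73) and Id2 (2.48) were higher and Bcl11a (-3.03) was lower, and none of 6 passed against type 1 cells. Against Cd209a cells Irf8 (edgeR adjusted p = 0.53) and Batf3 (0.062) were lost without the library block, and Irf8 without vehicle replicate 2 (0.79, 0.23). Hist1h1b did not pass without IPI-926 replicate 1 (-5.04, edgeR adjusted p = 0.15) or 2 (-4.58, 0.057).

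Genes of cell division, glycolysis and stress were also examined, with the markers of other cells. Of 7 cell division genes 2, Birc5 (-1.44) and Stmn1 (-1.19), were lower than in type 1 cells, and none of 9 passed against Cd209a cells. The glycolytic enzyme Ldha fell by 1.18 relative to type 1 cells, and 4 of 12 immediate early and heat shock genes, Jun, Junb, Egr1 and Atf3, which tissue dissociation is known to induce, were higher. Epithelial markers were higher than in Cd209a cells in 6 of 8 genes, with Epcam at 3.11, Krt18 at 2.65 and Krt19 at 2.15. Fibroblast markers ran the other way, with 2 of 5 lower than in Cd209a cells, Dcn and Lum, and a list median of -2.14. The part of other cells' RNA in these values was not tested. Without members over 25000 UMIs, the log2 fold changes of Epcam and Krt18 were -0.77 and -0.19. Without the library block the 3 epithelial genes did not pass (edgeR adjusted p = 0.45 for Epcam, 0.58 for Krt18 and 0.34 for Krt19), nor did Stmn1 against type 1 cells (0.12). Stmn1 was also lost without vehicle replicate 2 (-1.07, edgeR adjusted p = 0.071).

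**Figure D4:**
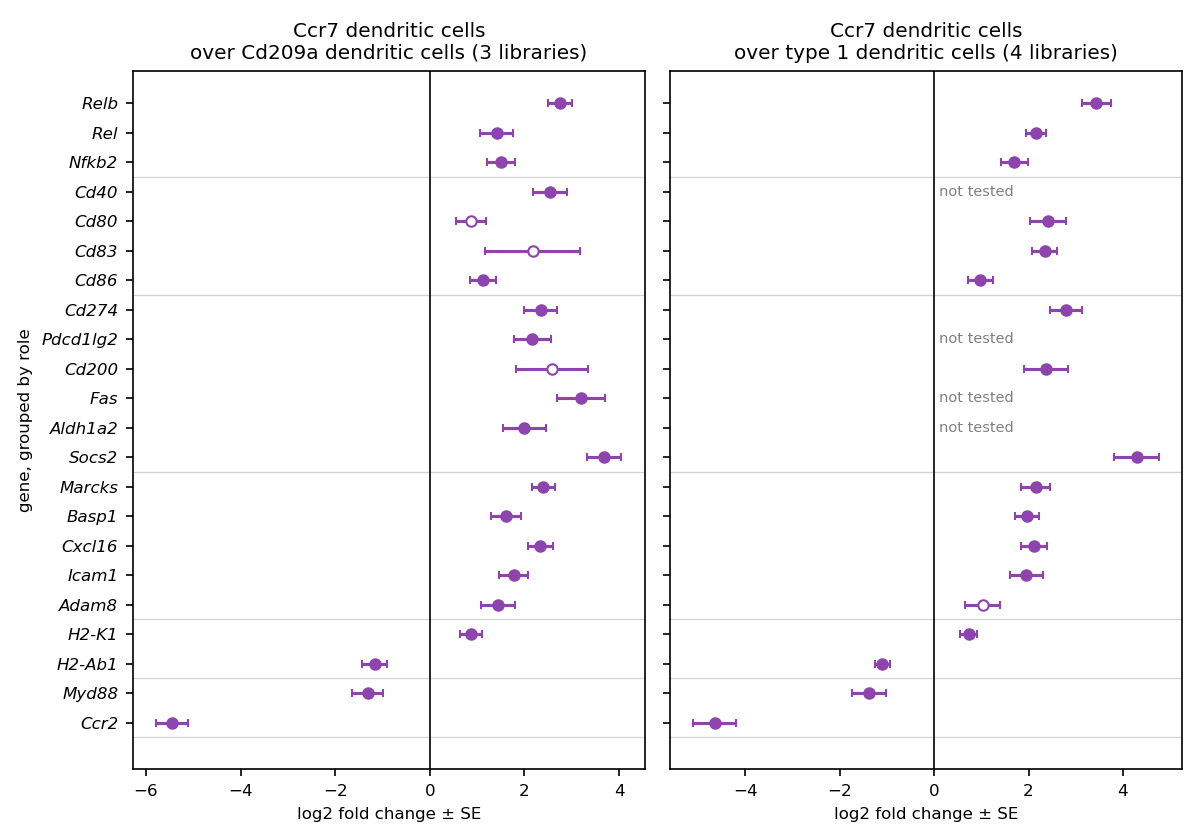
Log2 fold change with its SE (edgeR) of named genes in Ccr7 dendritic cells over Cd209a dendritic cells (left, 3 libraries) and over type 1 dendritic cells (right, 4 libraries), grouped by role and separated by grey lines. Filled points have an adjusted p under 0.05, and open points do not. NF-kB, immunoregulatory and migration genes lie right of 0, Relb at 2.75 and 3.43, while H2-Ab1, Myd88 and Ccr2 lie left of it.

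IPI-926 against vehicle gave no gene past the threshold within Ccr7 dendritic cells. With all 6 libraries, 0 of 2000 genes were called higher and 0 lower (0% each) by edgeR's quasi-likelihood test, with 44 at an unadjusted p under 0.05, and DESeq2 also called 0, with 38. Log2 fold changes were positive for 1015 genes and negative for 985. Genes of the rule were not left out of this fit. Every library with IPI-926 lay above every vehicle library for 63 genes (3.15%) and below for 59 (2.95%). Vehicle replicates 1 and 3 rest on 7 and 5 cells, so this comparison can detect only large differences, and a p above the threshold does not show that the groups were alike.

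Cd74, the invariant chain that escorts MHC class II molecules, had the smallest p of all genes. It had 11590, 11200 and 13982 CPM with IPI-926 and 7183, 6985 and 4296 CPM with vehicle. The groups did not overlap, and the log2 fold change was 1.04 (SE 0.21, edgeR adjusted p = 0.59, between 0.10 and 1.0 over the alternatives). Without members over 25000 UMIs the values were 11590, 14832 and 17113 CPM with IPI-926 and 7183, 10211 and 4626 CPM with vehicle, again without overlap. H2-Ab1 had 3038, 3401 and 2787 CPM with IPI-926 and 1851, 1892 and 520 CPM with vehicle (1.17, SE 0.40). Of 9 tested class II genes 8 had a positive log2 fold change (median 1.04), as did all 8 class I genes (median 0.81). The median over all genes was 0.01, and none passed. H2-Aa, which the rule used to choose the cells, is among the 9, so its part in that count and median carries no test. Epithelial markers went the other way in the same sums, negative in 6 of 6 (median -1.28), and their part in the class II values was not tested.

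Maturation genes had positive but uncalled differences. Cd83 had 520, 288 and 713 CPM with IPI-926 and 282, 271 and 97.0 CPM with vehicle (log2 fold change 1.28), and Icam1 had 243, 167 and 300 CPM with IPI-926 and 80.5, 135 and 17.6 CPM with vehicle (1.52). Neither gene's groups overlapped, though for Cd83 the lowest value with IPI-926 lay close to the highest with vehicle. All 6 tested costimulation and maturation genes were positive (median 0.94), among them Cd40 (1.12), Cd86 (0.75), Relb (0.43) and Cd80 (0.38), and 11 of 12 NF-kB and survival genes (median 0.43), with Nfkb2 at 0.60 and Birc3 at -0.52. Cd274 was at 0.54, Cd200 at 0.66, Adam8 at 0.84, Cxcl16 at 0.22, Pdcd1lg2 at -0.17 and Socs2 at -0.05. None of these passed, with an edgeR adjusted p of 0.999 for each. The positive sign was not particular to maturation genes. All 11 migration and cytoskeleton genes (median 0.44), rule genes among them, and all 5 general dendritic cell genes (median 0.62) were positive too. Epithelial genes (6 of 6) and immediate early and heat shock genes (6 of 9) were negative. Over all 2000 genes, 1015 were positive. Members over 25000 UMIs held 76.5% of the summed UMIs in vehicle replicate 3, which gave the lowest vehicle values of Cd83 and Icam1. Without them Cd83 had 520, 398 and 825 CPM with IPI-926 and 282, 396 and 338 CPM with vehicle, and Icam1 had 243, 209.3 and 389 CPM with IPI-926 and 80.5, 149.8 and 37.6 CPM with vehicle. The summed level of the costimulation and maturation list then overlapped, at 1146 to 3727 CPM with IPI-926 and 1241 to 1590 CPM with vehicle.

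Secreted products spread widely between mice of the same group. Il12b had 235, 7.58 and 1073 CPM with IPI-926 and 282, 94.4 and 0 CPM with vehicle. Ccl17 had 1670, 4303 and 299.7 CPM with IPI-926 and 2394, 2534 and 520 CPM with vehicle, and Ccl5 had 1603, 739 and 5442 CPM with IPI-926 and 2354, 536 and 2876 CPM with vehicle. All of these groups overlapped, with log2 fold changes of 2.06 (SE 1.91) for Il12b, 0.24 (SE 1.07) for Ccl17 and 0.47 (SE 1.003) for Ccl5. Aldh1a2 had 92.3, 284 and 18.0 CPM with IPI-926 and 282, 118 and 185 CPM with vehicle, also overlapping (-0.43).

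**Figure D5:**
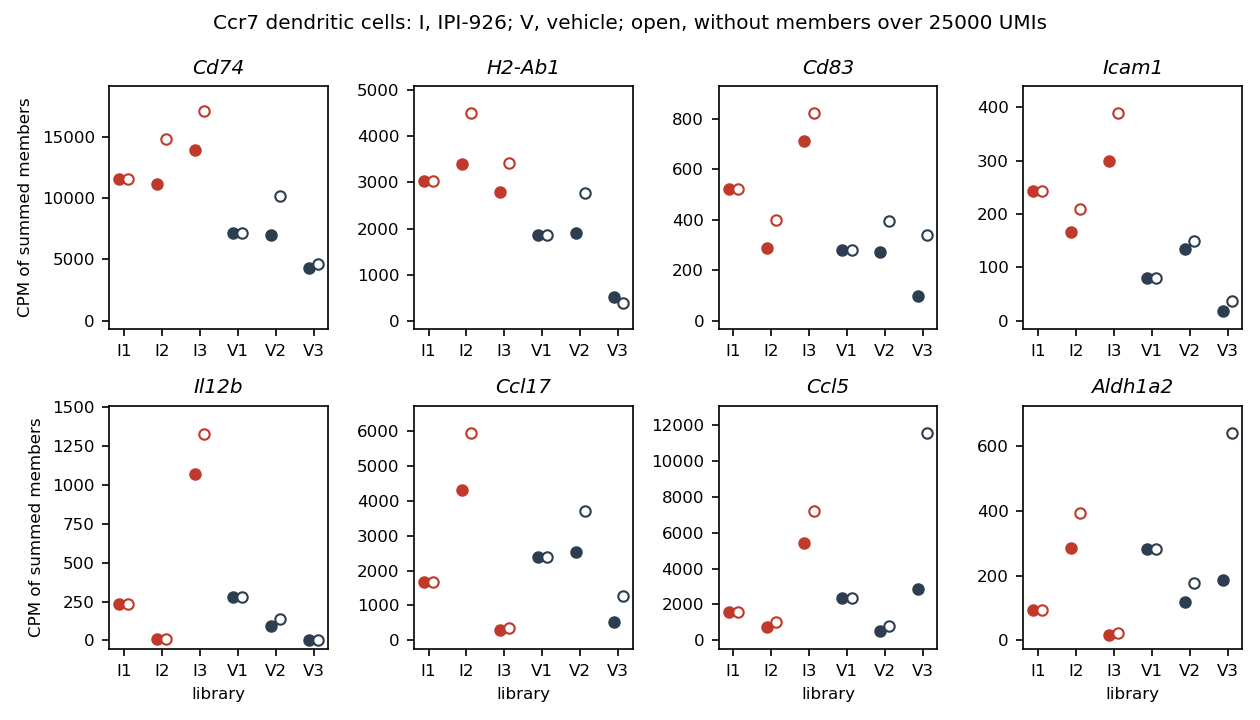
CPM of 8 genes in the summed Ccr7 dendritic cells of each library, I for IPI-926 and V for vehicle, with all members (filled) and without those over 25000 UMIs (open). The filled points of Cd74, H2-Ab1, Cd83 and Icam1 do not overlap between groups, and those of Il12b, Ccl17, Ccl5 and Aldh1a2 do. No gene had an adjusted p under 0.05.

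Among the other genes of smallest p, Rgs1, a brake on chemokine receptor signalling, had 780.5, 246 and 893 CPM with IPI-926 and 201, 175 and 44.1 CPM with vehicle (log2 fold change 2.26), and passed when no genes were filtered on low counts (edgeR adjusted p = 0.028). The secreted immunoregulator Fgl2 had 83.9, 79.6 and 156 CPM with IPI-926 and 0, 19.5 and 17.6 CPM with vehicle (2.65), and Tspan33, a tetraspanin, was at 1.47. The stomach secretory gene Gkn1 had 0, 30.3 and 5.99 CPM with IPI-926 and 80.5, 126 and 88.2 CPM with vehicle (-2.73), and Sox4 was at -2.32, Vps36 at -1.84, Lpgat1 at -1.48 and Srsf6 at -1.40. The groups of these genes did not overlap, and none passed after the filter on low counts (edgeR adjusted p = 0.999 each). Without members over 25000 UMIs, Gkn1 had 0, 10.5 and 7.93 CPM with IPI-926 and 80.5, 46.1 and 37.6 CPM with vehicle.

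Few UMIs of the pathway that IPI-926 targets were counted in these cells. Gli1, its transcriptional readout, had 0 UMIs in all 115 members, which allows a share of members with a UMI of up to 2.61%. A UMI was found in 1.20% of ductal cells and 3.59% of fibroblasts, and a difference from ductal cells was not detectable with this many members. The receptor Ptch1 had 0, 15.2 and 11.99 CPM with IPI-926 and 0, 18.0 and 8.82 CPM with vehicle, and Smo, the target of the drug, 0, 19.0 and 18.0 CPM with IPI-926 and 0, 5.99 and 8.82 CPM with vehicle. Both overlapped between groups, on 19 and 13 UMIs in all. Ptch1 was detected in 11.3% of members, 25.7% of ductal cells and 13.3% of fibroblasts. None of 11 Hedgehog genes had counts enough to be tested. The WNT target Axin2 was detected in 4 members, and the growth factor Vegfa had 101, 53.1 and 5.99 CPM with IPI-926 and 60.4, 36.0 and 17.6 CPM with vehicle, overlapping and untested.

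Whether the difference between IPI-926 and vehicle was another in Ccr7 than in Cd209a dendritic cells could be fitted in only 3 libraries, of which 1 was vehicle. With no vehicle replicate the calls cannot be told apart from a property of that library, and they are given as a description. The interaction term was past the threshold upward for 11 of 5746 genes (0.191%) and downward for 0 (0%) by edgeR, with 137 at an unadjusted p under 0.05. DESeq2 called 1 gene. No gene was called by edgeR once cells over 25000 UMIs were left out, when 151 lay below an unadjusted p of 0.05. None of the 11 is a gene of the maturation or presentation lists.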

How the data were processed

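The deposited files hold raw UMI counts of every gene in each barcode, as 6 matrices, 1 per mouse, that the authors did not normalize. Per the file headers the counts come from cellranger 6.1.2. Cell Ranger 2.1.1 and mm10 are the version and build in the submitters' processing notes, and which version applies is not settled here. The members, the gene lists and the comparison classes were chosen with earlier results of these data known.

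Counts of members and of both comparison classes were summed per library and tested with edgeR 4.0.16 in R 4.3.3 (TMM scaling, a filter on low counts by filterByExpr, robust quasi-likelihood fit, Benjamini-Hochberg adjustment over all genes tested, threshold 0.05). Class comparisons had the library as a block, since both classes of a library come from the same tumour, and needed at least 10 cells of each class. The planned minimum of 10 members left 1 vehicle library for the treatment comparison, so all 6 libraries with at least 5 members were used, a choice made after seeing the data. For the treatment fit without cells over 25000 UMIs the minimum was 3, and vehicle replicate 3 entered it with 3 members. CPM are shares of the summed UMIs without TMM scaling, and log2 fold changes and SE are edgeR's. Shares were tested by exact permutation of libraries (two-sided), with exact (Clopper-Pearson) 95% intervals that cover counting error only. Scripts ran in Python 3.11.15 with scipy 1.17.1 and scanpy 1.11.5, and DESeq2 1.42.0 was an alternative. The labels do not tie replicate numbers to a shared source across groups, and p-values by treatment measure the spread between these mice. In class comparisons with the library as a block, p-values measure how the difference between classes within a library varied between libraries.

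Genes named are a fixed list of maturation and pathway genes and, for classes, the 12 higher and 8 lower of largest fold among calls with a mean of at least 50 CPM in the higher class and 1 direction in every library, plus up to 4 of the most abundant genes of each list. For treatment the 5 of smallest p in each direction were added. Cst3, Bcl11a, Tgfb1, Ccl3, Ciita, Birc5, Jun, Egr1 and Atf3 were named after their values were seen. Doublets were not removed: Scrublet marked under 0.5% of cells in 4 of the 6 libraries and none of the members, and is taken not to have worked. Positions are from a GENCODE annotation on GRCm38 and promoters from RefSeq. Alternatives were DESeq2, median-ratio scaling, other filters, no block, stricter and looser rules, thinning, members with other cells' markers or over 25000 UMIs left out, and each library left out in turn. Dcn, Lum and Tlr3 were likewise named after their values were seen. Results on some genes are not reported here.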

Additional observations from a re-analysis of the deposited data

Results flagged for a closer look

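The difference between IPI-926 and vehicle, in Ccr7 minus Cd209a dendritic cells, was past the threshold for 11 genes in a fit of 2 libraries with IPI-926 and 1 with vehicle (edgeR, adjusted p from 0.00016 to 0.045). With 1 vehicle library these values cannot be told apart from a property of that library and are a description. The log2 differences were 7.234 for Ctla2a, 7.317 for Tnc, 6.735 for Postn, 4.31 for Gkn3, 5.547 for Aebp1, 4.028 for Col3a1, 3.78 for Bgn, 3.823 for Tff2, 6.952 for Fabp4, 3.562 for Col4a1 and 3.946 for Top2a. Tnc, Postn, Aebp1, Col3a1, Bgn and Col4a1 encode proteins of the extracellular matrix or are bound to it, Gkn3 and Tff2 are secreted by the stomach lining, and Top2a acts in cell division. Postn had 0 and 869 CPM in Ccr7 cells of IPI-926 replicates 2 and 3 and 1.498 CPM in those of vehicle replicate 2, and 0, 114 and 22.5 CPM in Cd209a cells of the same libraries. Without cells over 25000 UMIs the Ccr7 values of Postn were 0, 7.93 and 2.30 CPM. Ctla2a had 726 CPM in Cd209a cells of vehicle replicate 2, and 100 CPM without such cells. No gene was called in 4 libraries with at least 5 members, where 84 lay under an unadjusted p of 0.05. Of 44 genes whose Ccr7 minus type 1 difference was tested over 4 libraries for a library that stands apart, none had one, and groups of 3 libraries were not tested.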

How the results depend on the processing

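The share difference between IPI-926 and vehicle was -0.0465 percentage points and turned to 0.000587 with at least 2 rule genes, and leaving out 1 library gave -0.130 to 0.104. Genes by treatment stood at 0 higher and 0 lower, and became 8 and 10 with no filter on low counts. With at least 10 members, or with epithelial-marker or all other-marker members left out, vehicle replicate 2 was the only vehicle library. Calls of those fits are not compared here. Leaving out 1 library kept 0 in each direction. Against Cd209a dendritic cells the 375 higher genes became 219 with all 4 rule genes required, 197 thinned, 699 without cells over 25000 UMIs, 178 with no replicate block and 254 to 600 without 1 library. The 401 lower genes became 222 with DESeq2, 681 with no filter, 176 thinned, 635 without cells over 25000 UMIs, 153 with no block, 262 with C1q below 1 UMI and 196 to 585 without 1 library. Against type 1 cells the 381 higher became 720 with no filter, 674 at a mean of at least 10 CPM, 91 thinned and 249 to 467 without 1 library, and the 280 lower became 563, 502, 61 and 150 to 345. Thinning left 1283 and 451 genes to test, and the cause of the other shifts was not tested. The interaction count of 11 became 1 with DESeq2, 0 without cells over 25000 UMIs and 0 with at least 5 members.

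Uncalled treatment differences that changed sign were, with epithelial-marker members left out, Cd80 (-0.0016), Cd274 (-0.041), Ccl17 (-1.35), Adam8 (-0.11) and Nfkb2 (-0.32). With all other-marker members left out they were Cd274 (-0.13), Il12b (-0.30), Ccl17 (-1.18), Adam8 (-0.19) and Nfkb2 (-0.20), and without cells over 25000 UMIs Cd80 (-0.23) and Ccl5 (-0.49). With at least 10 members they were Aldh1a2 (0.21), Socs2 (0.050) and Ccl17 (-0.26). The fits with epithelial-marker or all other-marker members left out, and that with at least 10 members, each held 4 libraries. Replicate 2 was their only vehicle library, so their sign changes cannot be told apart from the loss of the other vehicle mice. Socs2 was also at 0.041 with no filter, 0.039 at a mean of at least 10 CPM and 0.21 with all 4 rule genes, and Ccl17 at -0.36 thinned. Without 1 library the ranges that crossed 0 were -0.72 to 0.44 for Pdcd1lg2, -1.77 to 0.058 for Aldh1a2, -0.24 to 0.15 for Socs2, -0.85 to 0.75 for Ccl17, -0.70 to 0.96 for Ccl5, -0.14 to 1.25 for Cxcl16, -0.017 to 1.21 for Relb and -0.99 to 0.097 for Birc3. Against Cd209a cells Epcam was at -2.13 without epithelial-marker members and -0.77 without cells over 25000 UMIs. Krt18 was at -0.19 without those cells, and with at least 5 members at -2.37 without epithelial-marker and -2.50 without all other-marker members. The cause of these shifts was not tested.

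Of the values for single named genes under the alternatives, 758 of those against Cd209a cells and 688 of those against type 1 cells kept their direction and side of the threshold, and 60 in each comparison kept the direction but lost the call. No paired analysis was possible by treatment because replicate numbers follow accession order. With no replicate block the calls against type 1 cells were 294 higher and 207 lower. A minimum of 20 members by treatment and leaving out 1 library for the interaction could not be fitted, and genes were not retested without Scrublet's doublets. The share difference without them was -0.0453. Few members per vehicle library limit the treatment comparison.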
